A study of Mus musculus with 12 samples.

Results

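The enzymes described here release the precursor of eicosanoids, make eicosanoids or inactivate them, and they are 10 of the 16821 genes listed for mouse liver. They were chosen by gene symbol (Pla2g12a, Ephx2, Ptgs1, Ptges, Ptgds, Tbxas1, Alox5, Lta4h, Ltc4s and Hpgd), with earlier results of these same data known, so that their differences between the groups are given as a description and not as independent evidence. The livers came from adult C57BL/6J males, 12 in all, and their RNA was sequenced. The 6 mice of the sedentary control group (Con) did not run, and the 6 mice of the chronic exercise group (Exe) ran on a treadmill for 6 weeks at moderate intensity. The labels name no transgene, drug or diet for either group. Each mouse gave 1 library of whole liver, so that fewer cells of a type and less RNA per cell cannot be told apart.

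Eicosanoids are short-lived lipid signals made from arachidonic acid, a fatty acid held in membrane phospholipids and freed by phospholipases A2. Cyclooxygenases turn it into prostaglandin H2, from which separate synthases make prostaglandins E2 and D2 and thromboxane A2. Lipoxygenases turn it into leukotrienes, and cytochrome P450 enzymes turn it into epoxides that the soluble epoxide hydrolase opens. In liver, prostanoids and leukotrienes come largely from Kupffer cells, the resident macrophages, and from other non-parenchymal cells, while hepatocytes take up and break down many of them.

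Values are FPKM (fragments scaled to transcript length and to the fragments mapped), which can be compared between genes because they are set per length. Summed over genes, FPKM came to 735200 in the lowest mouse and 820107 in the highest. Read counts were not used here, so the depth in reads is unknown. Hepatocyte markers were abundant in every library, with summed FPKM of 7 genes between 56721 and 74979 in Con and between 66001 and 82109 in Exe. Libraries differed in blood and inflammatory signal. The summed FPKM of 8 acute-phase genes, which hepatocytes raise in inflammation, lay between 3875 and 34719 in Con and between 4114 and 33876 in Exe, with Con 1 and Exe 5 the highest of their groups. In Exe 5 the lists of pancreatic acinar, red blood, T and NK and B cell genes were also at their highest of the 12 mice.

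The 10 enzymes spanned a wide range of levels. Ephx2, the soluble epoxide hydrolase, was the most abundant, with a mean of 308.2 FPKM over the 12 mice. Hpgd, which oxidizes prostaglandins to inactive products, followed at 48.0 FPKM. Both were above every other enzyme of the 10. Lta4h, which makes leukotriene B4, was at 16.2 FPKM, Pla2g12a, a secreted phospholipase A2, at 10.3 FPKM, and Ptgs1, the constitutive cyclooxygenase, at 6.34 FPKM. Lower still were Ptgds, a prostaglandin D2 synthase, at 3.62 FPKM, Ltc4s, the leukotriene C4 synthase, at 1.71 FPKM, and Tbxas1, the thromboxane A2 synthase, at 1.70 FPKM. Ptges, the inducible prostaglandin E2 synthase, at 0.175 FPKM and Alox5, the 5-lipoxygenase that starts leukotriene synthesis, at 0.06 FPKM were close to the limit of the values, which were given to 2 decimals. Of all FPKM of the 10 enzymes in a mouse, Ephx2 took 77.6% on average.

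In this order of levels, the ranges over the 12 mice were apart for 3 neighbouring pairs. Every mouse had more Ephx2 than any mouse had Hpgd, the lowest value of the first being 240.25 FPKM and the highest of the second 65.33 FPKM. The same held for Hpgd above Lta4h and for Tbxas1 above Ptges. Lta4h was above Pla2g12a, Pla2g12a above Ptgs1 and Ptgs1 above Ptgds in 11 of 12 mice each, although their ranges overlapped. Ptgds was above Ltc4s in 8 of 12 mice. Ltc4s was above Tbxas1 in 6 of 12 mice, so these 2 genes had no order beyond their spread.

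**Figure D1:**
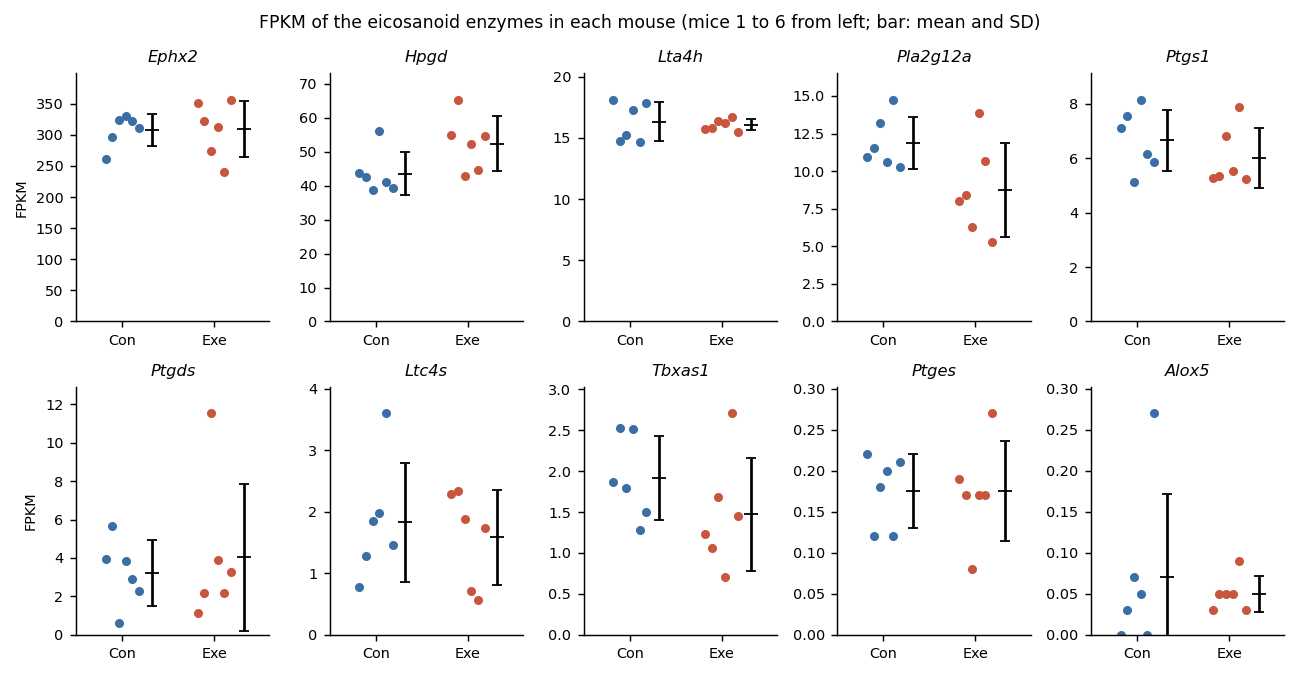
FPKM of each enzyme in every mouse, in order of mean level (each panel has its own linear axis from 0, points from left to right are mice 1 to 6 of Con and Exe, and the bar is the group mean with its SD, which for Alox5 in Con runs below 0 and is not drawn there). The groups overlapped for all 10 enzymes. For Pla2g12a 4 of 6 Exe mice were below every Con mouse, and for Hpgd all 6 Exe mice were above the Con median of 41.8 FPKM. The shares of all genes with such overlap or partial separation were not computed, so these are descriptions only.

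To ask how exercise training altered the enzymes, Exe was compared with Con in a limma fit over all 10241 genes with at least 1 FPKM in at least 6 mice, on log2(FPKM + 1). The added 1 makes differences of weakly expressed genes look smaller than they are. Of the 10 enzymes 8 passed this filter, and Ptges and Alox5 did not. None of the 8 passed an adjusted p of 0.05 (limma, Benjamini-Hochberg), and neither did any other gene, a background of 0%. The study did report changed genes in these livers, with a count test and a fold cutoff. The 0% therefore holds for this fit of log2(FPKM + 1) only. The adjusted p of the 8 lay between 0.793 and 0.9999. At an unadjusted p under 0.05, which 6.21% of all genes passed, 4.27% higher and 1.94% lower in Exe, there were 2 of the 8 enzymes: Pla2g12a with the lower mean in Exe and Hpgd with the higher. In the exact two-sided permutation test on log2 values, p was 0.0498 for Pla2g12a and 0.0563 for Hpgd. Hpgd thus did not pass 0.05 in that test. On the log2 scale, on which all counts of higher and lower means are given here, the mean was lower in Exe for 6 of the 8 and higher for 2, Ephx2 among the lower by less than 0.01, with a median log2 difference of -0.07 beside 0.02 over all genes tested. The unadjusted count was 0 of 8 without Con 5 or without Exe 6, and 3 without Exe 5, when Tbxas1 joined. Over all 10241 genes the count was 636 with every mouse. It was 600 without Con 5, 517 without Exe 6 and 910 without Exe 5.

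**Figure D2:**
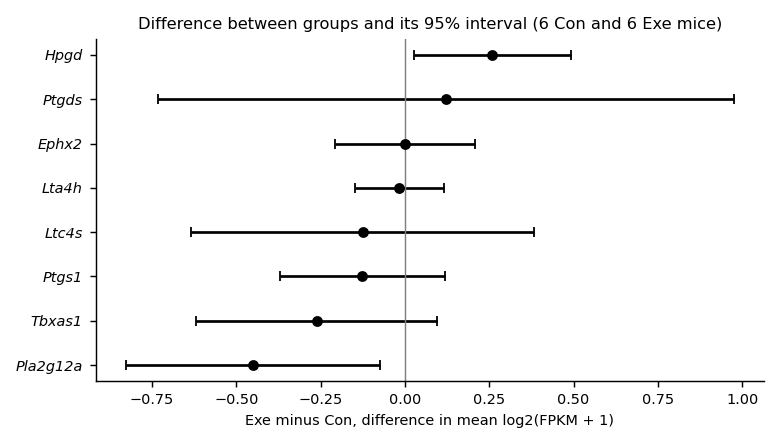
Difference between Exe and Con in mean log2(FPKM + 1) for the 8 enzymes that passed the filter (points, with 95% intervals from the limma fit as bars, 6 mice per group). The intervals of Pla2g12a (-0.83 to -0.07) and Hpgd (0.03 to 0.49) lay on one side of 0 before adjustment for 10241 genes, and those of the other 6 included 0.

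Release of arachidonic acid. Pla2g12a encodes group XIIA phospholipase A2, a secreted enzyme of low activity on phospholipids. In Con its FPKM was 10.92, 11.53, 13.20, 10.59, 14.74 and 10.25 in mice 1 to 6. In Exe it was 7.99, 8.38, 6.27, 13.86, 10.69 and 5.28. Exe 1, 2, 3 and 6 were below every Con mouse, while Exe 4 was above all Con mice but Con 5, so the groups overlapped through Exe 4 and Exe 5. The mean was 11.9 ± 1.75 FPKM in Con and 8.75 ± 3.12 FPKM in Exe (SD, n = 6), a ratio of 0.737. The log2 difference was -0.45 (SE 0.18), with an unadjusted p of 0.0229 and an adjusted p of 0.793 (limma), so it did not pass. Leaving out Exe 4 gave -0.58 and leaving out Exe 6 gave -0.34. Its spread within groups was larger than that of 94.0% of the genes tested.

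Of 14 tested from a list of 19 other genes that supply or free arachidonic acid, 8 had the higher mean in Exe and 6 the lower. Fads2, the delta-6 desaturase of polyunsaturated fatty acid synthesis, was the most abundant at 179.6 FPKM. Fads1, the delta-5 desaturase that makes arachidonic acid, had 114.3 ± 10.8 FPKM in Con and 131.9 ± 18.0 FPKM in Exe (SD, n = 6), with a log2 difference of 0.20 (SE 0.09), an unadjusted p of 0.0485 and an adjusted p of 0.799 (limma). Pla2g12b, the relative of Pla2g12a without catalytic activity, was at 43.0 FPKM in Con and 39.5 FPKM in Exe, with an adjusted p of 0.884 (limma). Pla2g4a, the cytosolic phospholipase A2 that feeds cyclooxygenase in many cells, was at 0.569 FPKM over the 12 mice and under the filter.

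Prostanoid synthesis. Ptgs1 encodes cyclooxygenase-1, which makes prostaglandin H2. Its FPKM was 7.10, 7.54, 5.13, 8.15, 6.16 and 5.85 in Con 1 to 6, and 5.28, 5.34, 6.83, 5.52, 7.89 and 5.23 in Exe 1 to 6. Exe 3 and Exe 5 lay with the higher Con mice and the other 4 Exe mice lay between 5.23 and 5.52, above only Con 3. The mean was 6.66 ± 1.13 FPKM in Con and 6.02 ± 1.10 FPKM in Exe (SD, n = 6), and the log2 difference of -0.13 (95% interval -0.37 to 0.12) did not pass, with an adjusted p of 0.931 (limma). It was -0.07 without Con 4 and -0.20 without Exe 5. Ptgs2, the inducible cyclooxygenase, was at most 0.01 FPKM in any mouse of either group, so that nearly all cyclooxygenase RNA in these livers was Ptgs1.

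Tbxas1 encodes thromboxane A synthase, which turns prostaglandin H2 into the platelet-activating and vessel-constricting thromboxane A2. Its FPKM was 1.87, 2.53, 1.80, 2.52, 1.28 and 1.50 in Con 1 to 6, and 1.23, 1.06, 1.68, 0.71, 2.71 and 1.45 in Exe 1 to 6. Exe 1, 2 and 4 were below every Con mouse and Exe 5 was above every Con mouse. The mean was 1.92 ± 0.517 FPKM in Con and 1.47 ± 0.691 FPKM in Exe (SD, n = 6). The log2 difference of -0.26 (95% interval -0.62 to 0.10) had an adjusted p of 0.888 (limma), and was -0.16 without Exe 4 and -0.43 with a pseudocount of 0.1. The platelet list was between 1.91 and 5.12 FPKM in sum over 6 genes in every mouse.

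Ptgds and Ptges make prostaglandins D2 and E2. Ptgds had the largest spread within groups on the log2 scale among the 8 enzymes tested, with 3.96, 5.67, 0.62, 3.85, 2.92 and 2.29 FPKM in Con 1 to 6, and 1.11, 2.15, 11.54, 3.89, 2.19 and 3.28 FPKM in Exe 1 to 6. Exe 3 stood far above the other mice and Con 3 was the lowest, an 18.6-fold range, and the spread was larger than that of 99.4% of genes tested. The log2 difference was 0.12 (95% interval -0.73 to 0.98), with an adjusted p of 0.978 (limma), and it was -0.19 without Exe 3 and -0.13 without Con 3. Ptges lay between 0.12 and 0.22 FPKM in Con (median 0.19) and between 0.08 and 0.27 FPKM in Exe (median 0.17), with the same mean of 0.175 FPKM in both groups (exact two-sided permutation test on log2 values, p = 0.987).

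The other prostanoid genes put these levels in place. The constitutive prostaglandin E2 synthases Ptges3 and Ptges2 were at 47.0 and 10.9 FPKM, well above Ptges. Hpgds, the other prostaglandin D2 synthase, was at 0.373 FPKM, below Ptgds. Of 9 genes on the list 7 were tested, 4 with the higher mean in Exe and 3 with the lower. Cbr1, a carbonyl reductase that can turn prostaglandin E2 into F2-alpha, had 40.5 ± 4.78 FPKM in Con and 48.4 ± 5.51 FPKM in Exe (SD, n = 6). Its log2 difference of 0.25 (SE 0.09) had an unadjusted p of 0.0155 and an adjusted p of 0.793 (limma).

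**Figure D3:**
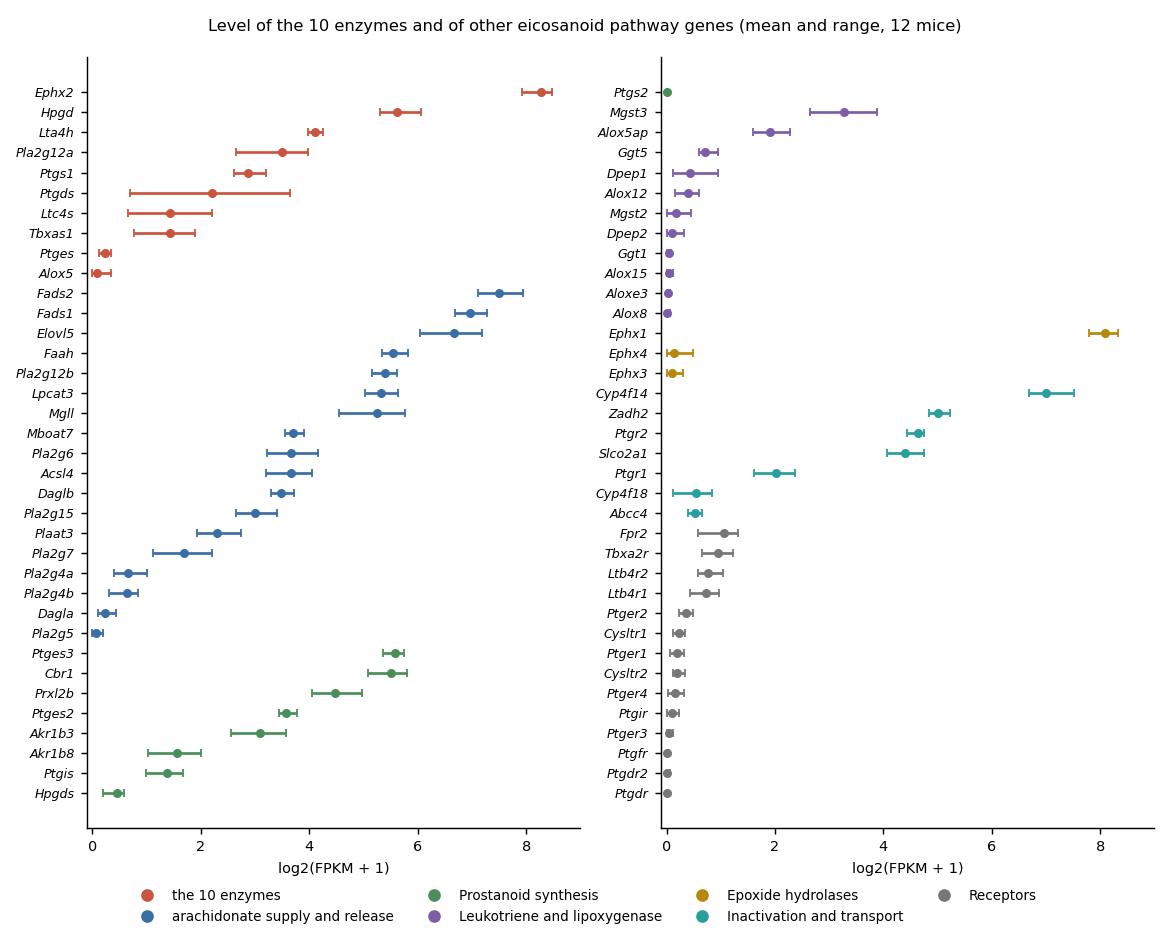
Mean log2(FPKM + 1) over 12 mice (points, with the lowest and highest mouse as bars) of the 10 enzymes and of 62 other listed genes of the pathway, coloured by role. Ephx2 and Ephx1 were the most abundant, while Alox5, Ptges, Ptgs2 and most receptors were at the left edge.

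Leukotriene synthesis. Alox5 was listed at 0 in Con 1 and Con 5, and at 0.03, 0.07, 0.05 and 0.27 FPKM in Con 2, 3, 4 and 6. In Exe it lay between 0.03 and 0.09 FPKM with a median of 0.05. The groups overlapped (exact two-sided permutation test on log2 values, p = 0.903), and Con 6 alone held the high end. Con 6 also had the highest summed FPKM of 3 lists near 0: mast cells and basophils at 0.49, mesothelium at 1.33 and adipose tissue at 0.22. Their part in the Alox5 value was not tested. Alox5ap, the protein that hands arachidonic acid to 5-lipoxygenase, was at 2.75 FPKM over the 12 mice.

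Lta4h, which turns leukotriene A4 into the neutrophil attractant leukotriene B4, was the steadiest of the enzymes. It had 18.12, 14.78, 15.28, 17.30, 14.65 and 17.84 FPKM in Con 1 to 6, and 15.76, 15.81, 16.43, 16.20, 16.72 and 15.53 FPKM in Exe 1 to 6. All Exe mice lay inside the Con range, with 3 Con mice above and 3 below them. The means were 16.3 ± 1.60 and 16.1 ± 0.453 FPKM (SD, n = 6), and the 95% interval of the log2 difference, -0.15 to 0.12, spans ratios on the FPKM + 1 scale from 0.902 to 1.083. Only 18.3% of the genes tested had a smaller spread within groups.

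Ltc4s, which joins leukotriene A4 to glutathione to make the cysteinyl leukotriene C4, had 0.78, 1.28, 1.85, 1.98, 3.60 and 1.46 FPKM in Con 1 to 6, and 2.29, 2.34, 1.88, 0.71, 0.57 and 1.73 FPKM in Exe 1 to 6. Con 5 was the highest and Exe 5 the lowest mouse, a 6.32-fold range. The log2 difference of -0.12 (95% interval -0.63 to 0.38) did not pass, with an adjusted p of 0.961 (limma), and turned to 0.03 without Con 5. Of 12 other leukotriene and lipoxygenase genes 2 were tested, Alox5ap and Mgst3, a microsomal glutathione transferase at 8.67 FPKM. Both had the higher mean in Exe, and neither passed an unadjusted p of 0.05.

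Epoxide hydrolysis. Ephx2 opens the epoxides of arachidonic and linoleic acid into diols. It had 260.68, 296.11, 323.29, 330.76, 322.71 and 310.73 FPKM in Con 1 to 6, and 350.69, 321.50, 273.74, 311.99, 240.25 and 356.27 FPKM in Exe 1 to 6. The 2 highest mice, Exe 6 and Exe 1, and the lowest, Exe 5, were all in the Exe group, whose SD was 45.0 FPKM beside 25.9 FPKM in Con. The means were 307.4 and 309.1 FPKM (n = 6), a ratio of 1.01. The log2 difference was 0.00 to 2 decimals (95% interval -0.21 to 0.21), with an adjusted p of 0.9999 (limma). Ephx1, the microsomal epoxide hydrolase, was at a similar level of 272.1 FPKM, with an adjusted p of 0.975 (limma).

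Inactivation. Hpgd encodes 15-hydroxyprostaglandin dehydrogenase, the first enzyme of prostaglandin breakdown. Its FPKM was 43.83, 42.49, 38.61, 56.08, 41.12 and 39.30 in Con 1 to 6, and 54.99, 65.33, 42.74, 52.41, 44.52 and 54.70 in Exe 1 to 6. All 6 Exe mice were above the Con median and 4 Con mice were below every Exe mouse, while Con 4 lay inside the upper Exe range. The mean was 43.6 ± 6.43 FPKM in Con and 52.4 ± 8.18 FPKM in Exe (SD, n = 6), a ratio of 1.20. The log2 difference of 0.26 (SE 0.11) had an unadjusted p of 0.0320 and an adjusted p of 0.793 (limma), so it did not pass. It was 0.33 without Con 4 and 0.19 without Exe 2. Each of the 7 hepatocyte markers also had the higher mean in Exe (median log2 difference 0.07), 2 of them past an unadjusted p of 0.05 (limma). Of all genes tested, 57.53% had the higher mean in Exe. Each of the 8 acute-phase genes had the lower mean (median -0.69), none past an unadjusted p of 0.05. Over the 12 mice, Hpgd had r = -0.612 with the acute-phase list (permutation p = 0.0361, adjusted 0.194, rho = -0.469, permutation p = 0.128, adjusted 0.366) and r = 0.556 with the hepatocyte list (permutation p = 0.0608, adjusted 0.221, rho = 0.455, permutation p = 0.14, adjusted 0.373). Neither relation passed, and the part of these lists in the difference was not tested.

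Slco2a1, the transporter that carries prostaglandins into cells for breakdown, was at 20.04 FPKM, and the prostaglandin reductases Ptgr2 and Ptgr1, which act after Hpgd, were at 24.0 and 3.08 FPKM. Of 8 genes of inactivation and transport 5 were tested, 3 with the higher mean in Exe and 2 with the lower, none past an unadjusted p of 0.05. Cyp4f14, a leukotriene B4 hydroxylase, was the most abundant at 127.6 FPKM. Of 15 receptors only Fpr2, which binds lipoxin A4 and formyl peptides, passed the filter, at 1.085 FPKM. Over all roles, 30 of 66 other pathway genes were tested, 18 had the higher mean in Exe and 12 the lower, and 2 (Cbr1 and Fads1) passed an unadjusted p of 0.05, 6.67% beside the background of 6.21%.

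To ask which enzymes moved with a cell type across mice, the 8 enzymes were related to 5 marker lists over the 12 mice, 40 relations in all. Of these 2 passed a Benjamini-Hochberg adjusted permutation p of 0.05, Ptgs1 and Tbxas1 with the mean log2(FPKM + 1) of 12 Kupffer cell genes, among them Cd5l at 74.6 FPKM. Both enzymes make thromboxane A2 in sequence. For Tbxas1 Pearson's r was 0.852 (permutation p = 0.0005, adjusted 0.0114) and Spearman's rho 0.951 (permutation p = 2e-05, adjusted 0.0008). For Ptgs1 r was 0.857 (permutation p = 0.00057, adjusted 0.0114) and rho 0.685 (permutation p = 0.0173, adjusted 0.139). Among the 10229 tested genes outside the list, 1.31% had an r of at least the size of that of Tbxas1 and 1.15% of that of Ptgs1. The monocyte list was not among the 5 lists related. Its summed FPKM was also highest in Con 2 (103.13), Con 4 (92.83) and Exe 5 (92.16), and lowest in Exe 2 (48.57). Whether the relations are particular to Kupffer cells was not tested.

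**Figure D4:**
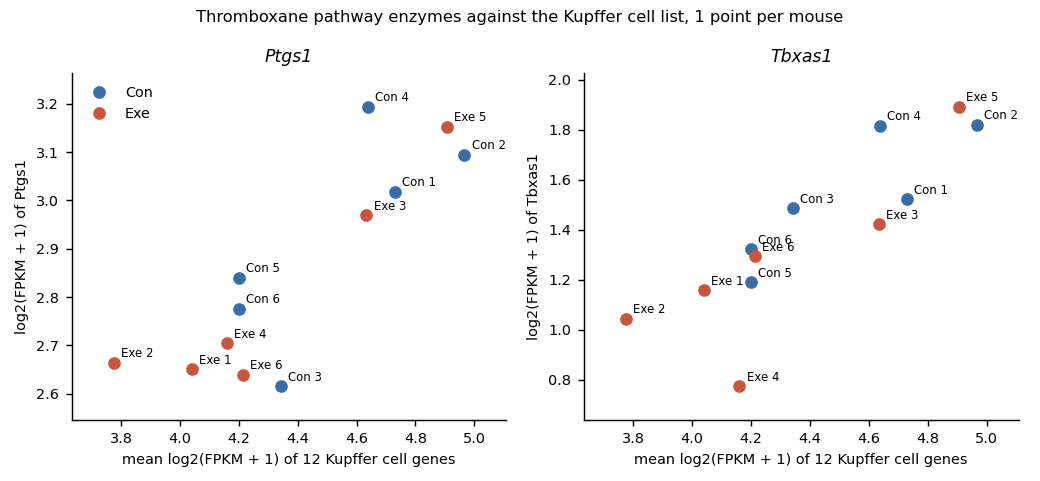
Log2(FPKM + 1) of Ptgs1 and Tbxas1 (y axes) against the mean log2(FPKM + 1) of 12 Kupffer cell genes (x axes), 1 point per mouse, Con in blue and Exe in red. Con 2, Exe 5 and Con 4 were high in all 3 measures, and Exe 1 and Exe 2 were low.

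Both relations were positive within each group. For Tbxas1 r was 0.859 in Con (exact permutation p = 0.0319) and 0.823 in Exe (exact permutation p = 0.0389). For Ptgs1 it was 0.754 in Con (exact permutation p = 0.0944) and 0.925 in Exe (exact permutation p = 0.0208). With the group means subtracted, r was 0.834 for Tbxas1 and 0.842 for Ptgs1, each with an adjusted permutation p of 0.052. Without Con 2 and Exe 5, the mice farthest from the median of the list, r was 0.745 for Tbxas1 and 0.785 for Ptgs1, (permutation p = 0.0139 and 0.00715). The adjusted p of both was 0.278, so neither relation passed over the 10 mice left. No mouse lay between 4.34 (Con 3) and 4.63 (Exe 3) on the list, with 7 mice at or below this gap and 5 at or above it, and all 5 had more Ptgs1 than the other 7. This did not hold for Tbxas1, of which Con 3 had 1.80 and Exe 3 had 1.68 FPKM. Exe 5 was also high in acute-phase and blood cell genes, whose part in these relations was not tested.

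The Kupffer list had the lower mean in Exe for all 12 of its genes, with log2 differences from -0.34 to -0.11, of which 0 passed an unadjusted p of 0.05. The mean was also lower for 8 of 9 stellate, 8 of 8 acute-phase, 4 of 8 endothelial and 0 of 7 hepatocyte genes. Of all genes tested, 57.53% had the higher mean in Exe. The summed FPKM of the Kupffer list was between 319.9 and 587.0 in Con and between 231.0 and 526.4 in Exe. The mean log2 level was 4.51 ± 0.314 in Con and 4.29 ± 0.412 in Exe (SD, n = 6, exact two-sided permutation p = 0.305). Taken relative to that level in the same mouse, the difference between Exe and Con was -0.04 for Tbxas1 (exact two-sided permutation p = 0.758), beside -0.26 unscaled. For Ptgs1 it was 0.10 (exact two-sided permutation p = 0.455), beside -0.13 unscaled, so that the sign turned. The added 1 makes the difference of the weakly expressed Tbxas1 look smaller, and with a pseudocount of 0.1 it was -0.43 unscaled. The relative values were not computed with that pseudocount, so the -0.04 of Tbxas1 holds for the added 1 only. They only subtract the list level, which differed by -0.225 between the groups, from each enzyme. Both enzymes were picked for their relation to the list in these same mice, so the values are a description. The part of Kupffer cells in the differences was not tested.

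The 100 bases before the start of these 2 genes are shown because both were related to the Kupffer list across mice. They come from RefSeq's promoter table of GRCm38.p6, whereas the study names GRCm39 for its alignment, and both genes lie on the plus strand. Capitals mark the letters GAGGAA or their reverse complement, known as the purine-rich core bound by PU.1, the transcription factor of macrophages and other myeloid cells. The Ptgs1 stretch is chr2:36230326-36230425 and the Tbxas1 stretch chr6:38918886-38918985.
Ptgs1: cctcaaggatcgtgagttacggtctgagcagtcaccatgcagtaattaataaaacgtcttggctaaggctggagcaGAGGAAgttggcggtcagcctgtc
Tbxas1: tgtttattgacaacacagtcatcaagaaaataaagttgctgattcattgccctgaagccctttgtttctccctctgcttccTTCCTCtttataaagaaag

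The letters begin 24 bases before the start in Ptgs1, and lie on the other strand from 19 bases before it in Tbxas1. Of the 9 enzymes with a promoter in the table (Ephx2 had none), these 2 held them within 100 bases, beside 9.82% of all 32851 promoters. Within 250 bases 7 of the 9 held them, beside 23.3% of all. Motif and window were picked after the sequences and relations were seen, and a match is no evidence of binding.

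Other relations did not pass. Ephx2 ran against the Kupffer list, with r = -0.69 (permutation p = 0.0133, adjusted 0.159) and rho = -0.52 (permutation p = 0.085, adjusted 0.309). Ephx2 also ran against the acute-phase list, with r = -0.657 (permutation p = 0.0199, adjusted 0.159) and rho = -0.594 (permutation p = 0.0453, adjusted 0.2805). Tbxas1 ran against the hepatocyte list, with r = -0.664 (permutation p = 0.019, adjusted 0.159) and rho = -0.790 (permutation p = 0.0032, adjusted 0.064). With the stellate list it had r = 0.615 (permutation p = 0.0346, adjusted 0.194) and rho = 0.706 (permutation p = 0.0123, adjusted 0.139). Among the 28 pairs of enzymes, Ptgs1 and Tbxas1 had the largest r at 0.792 (permutation p = 0.00246, adjusted 0.0689), with rho 0.671 (permutation p = 0.0207, adjusted 0.457). No pair passed.

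For each of the 8 enzymes, the tested gene with the most similar pattern over the 12 mice was found by Pearson's r among 10240 genes. As the highest of so many, these values carry no test. They were Siglece for Ptgs1 (r = 0.945), Rgs2 for Tbxas1 (r = 0.945, rho = 0.984), Dcun1d4 for Pla2g12a (r = 0.935) and Cct7 for Hpgd (r = 0.931). For Ptgds it was Rab24 (r = 0.927), for Ephx2 Grcc10 (r = 0.926), for Lta4h Hdgfl2 (r = 0.919) and for Ltc4s Mcur1 (r = 0.893).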

How the data were processed

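Libraries of liver RNA, 1 for each of 6 Con and 6 Exe mice, were run on the DNBseq platform. The authors aligned clean reads with HISAT to GRCm39 and deposited FPKM to 2 decimals per gene, and neither the FPKM tool nor a scaling of one mouse to another is given in the sources used here. The submitters' processing notes also name Bowtie2 and mm10. FPKM are not counts, so limma 3.58.1 in R 4.3.3 was used in place of the study's count test, on log2(FPKM + 1), with lmFit, eBayes with a trend and Benjamini-Hochberg adjustment, for genes with at least 1 FPKM in at least 6 of 12 mice. The fit was tested on simulated data. Figures were drawn with matplotlib 3.10.9. Python 3.11.15 (scipy 1.17.1, pandas 2.3.3, numpy 2.4.6) gave the permutation tests, two-sided, exact over 924 divisions for group differences and with 100000 permutations for relations over 12 mice. Relative depth, estimated from 19 genes with FPKM in whole steps, lay between 0.984 and 1.024. Spearman's rho between mice across genes was 0.976 to 0.990. Nothing says whether libraries shared a preparation day.

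The enzymes, pathway list and marker lists were chosen with earlier results of these data known. Named genes were all 10 enzymes, pathway genes past an unadjusted p of 0.05, the most abundant gene of each role and list, and the gene most alike each enzyme. Pla2g12b, Pla2g4a, Ptgs2, Ptges2, Hpgds, Alox5ap, Slco2a1, Ptgr1 and Ptgr2 were named after their values were seen. Alternatives were a pseudocount of 0.1, a stricter filter or none, quantile normalization, robust moderation, a replicate block and each mouse left out. The relations among enzymes, the count of enzymes past an unadjusted p and the values relative to the Kupffer list were added after seeing the data.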

Additional observations from a re-analysis of the deposited data

Results flagged for a closer look

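In 4 of 20 sets of 6 mice (10 enzymes in 2 groups) 1 mouse lay far from the rest by Dixon's ratio at the 95% level. Chance flags about 1 set in 20 where values are normally distributed, and the ratio was taken on FPKM without a log. The share over all genes was not computed, so the count is not read as an excess in these enzymes. Both Alox5 sets lie close to the limit of the values. Ptgds in Exe 3 was 11.54 FPKM, with 3.89 FPKM as the next highest mouse of the group (ratio 0.7335). The neutrophil list was also at its highest in Exe 3, at 56.27 FPKM in sum. In Exe 5 that list was at 53.39 FPKM and Ptgds at 2.19 FPKM. The relation of Ptgds to the neutrophil list was not tested. Hpgd in Con 4 was 56.08 FPKM, with 43.83 FPKM as the next (ratio 0.7012). Alox5 in Con 6 was 0.27 FPKM (ratio 0.7407) and Alox5 in Exe 5 was 0.09 FPKM (ratio 0.6667), with the other mice of both groups at 0.07 FPKM or less.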

How the results depend on the processing

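Of 247 alternative values, 202 kept their sign and call, or for counts stayed within 1.5 times, 23 changed sign and 22 counts moved by over 1.5 times. Pla2g12a stayed lower and Hpgd higher in Exe under every alternative run, and no enzyme passed an adjusted p of 0.05 under any of them. With no filter 1 gene passed the adjusted p, the cause of which was not tested. The count of genes at an unadjusted p under 0.05 was 636, and with 1 mouse left out it ran from 418 (without Exe 2) to 910 (without Exe 5). The enzymes past it ran from 0 to 3, and the other pathway genes from 1 to 5. Quantile normalization left 1 pathway gene. The replicate block gave 567 genes, 1 pathway gene and 2 enzymes. The labels give no link between same-numbered mice beyond the number. The deviations of 1 of 6 same-numbered pairs correlated above 0.1, with r from -0.478 to 0.165, and 1 of 6 Con mice matched its own number best. These values do not settle whether same-numbered mice shared a batch. With 1 mouse left out, the log2 difference changed sign for Ephx2 (-0.047 to 0.069), Ptges (-0.023 to 0.023), Ptgds (-0.19 to 0.32), Alox5 (-0.041 to 0.028), Lta4h (-0.045 to 0.013) and Ltc4s (-0.25 to 0.03). It ran from -0.39 to -0.16 for Tbxas1 and from -0.20 to -0.07 for Ptgs1. Relative to the Kupffer list it was 0.10 for Ptgs1. The count of relations past the adjusted p was 2, and 0 with the group means subtracted and 0 without the 2 farthest mice, where fewer mice enter. Ptgds, Ltc4s and Tbxas1 were not fitted under the stricter filter. Without read counts, the counting error of the low values of Ptges and Alox5 cannot be given.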

Other observations

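Tbxas1 and the acute-phase list had r = 0.984 in Exe (exact permutation p = 0.00139) and r = 0.0954 in Con (exact permutation p = 0.829). The difference between the groups was not tested, and over the 12 mice the relation did not pass (r = 0.591, adjusted permutation p = 0.203, rho = 0.685, adjusted permutation p = 0.139). Without Con 1 and Exe 5, r was 0.474. The r in Exe was picked as the largest in that group among the 40 relations with lists. Its exact permutation p is the smallest that 6 mice allow. In Exe, pairs of enzymes reached the same p: Ephx2 with Ptgs1 (r = -0.970), Ephx2 with Lta4h (r = -0.964) and Ptgs1 with Lta4h (r = 0.919).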
